A study of Mus musculus with 8 samples.

Results

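The translation initiation and elongation factors are the proteins that bring an mRNA, a ribosome and the initiator tRNA together and then move the ribosome along the message. They were read here in donor CD4+ T cells taken from the spleens of allogeneic bone marrow transplant recipients on d5. The members are all entries of the deposited expression table whose gene symbol starts with *Eif* or *Eef*, leaving out the eIF2 kinases (*Eif2ak*). This rule, which uses no measured value, found 59 of 12417 entries. Of these, 58 had a mean of at least 1 TPM (a transcript level that is scaled to the transcript's length and to the total of the library) and were tested with 10238 genes in all. *Eef2k*, the kinase that inhibits eEF2, was the member left out, at 0.0162 to 0.211 TPM. The symbol is not a role in every case. *Eif4a3* encodes a helicase of the exon junction complex on spliced mRNA, *Eif1ad* acts in the maturation of the small ribosomal subunit in human cells, and *Eef1e1* encodes a scaffold protein of the tRNA synthetase complex.

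Initiation begins when eIF4F binds the cap of an mRNA through eIF4E, unwinds it with the eIF4A helicase and recruits the small ribosomal subunit through eIF3. That subunit carries the initiator tRNA, delivered by eIF2 with GTP, and eIF2B recharges eIF2 after each round. The elongation factor eEF1A then brings each aminoacyl-tRNA, and eEF2 moves the ribosome on by 1 codon. Resting T cells hold translation low and activated T cells raise it, with mTORC1 acting on the eIF4E-binding proteins and Myc on transcription of many of these genes.

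The study asked what signaling of the alarmin IL-33 through its receptor ST2 does to donor CD4+ T cells. ST2WT cells came from B6 CD45.1+ St2+/+ mice. ST2fl/fl cells came from B6 CD45.2+ mice that carry *CD4-Cre*, the *R26-LSL-YFP* reporter and *St2fl/fl*, so that Cre made in T cells deletes part of the ST2 gene *Il1rl1* and turns on YFP. Both populations were cotransferred into the same 4 lethally irradiated BALB/c recipients and sorted from each spleen, which gave 4 ST2WT and 4 ST2fl/fl libraries. The age of the mice is not in the labels. Libraries that share a number in the labels are treated here as from 1 recipient. The CD45 allele and the ST2 genotype differ together in all 8 libraries, so their effects cannot be told apart.

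The deposited values hold no read totals, so the depth of the libraries is unknown. *Il1rl1* was at 14.6 to 21.3 TPM in ST2WT and 14.9 to 17.7 TPM in ST2fl/fl libraries, a whole-gene level that cannot show a deleted exon. All 8 markers of CD4 T cells on the list used were present. Their summed level was 5973 to 6398 TPM in ST2WT and 7117 to 7391 TPM in ST2fl/fl libraries, without overlap. Most of it was *Cd3g*, at a mean of 2133 TPM in ST2WT and 2674 TPM in ST2fl/fl, and *Cd3d*, at 1800 and 2113.5 TPM. These genes and *Cd4* did not overlap between genotypes. *Cd3e*, *Cd247*, *Lck*, *Cd2* and *Cd5* did, and *Cd5* was higher in ST2WT by sign (log2 fold change 0.05). *Cd79a*, *Cd8a*, *Lyz2* and *Itgam* have no value among those used. The summed B cell markers, 4 of 7 with values, were at 304 to 317 TPM in ST2WT and 256 to 300 TPM in ST2fl/fl libraries, again without overlap, and the other marker lists overlapped between genotypes. Most of that sum was *Ighm*. *Cd74*, which activated T cells can express as well, went the other way, at 33.1 to 40.6 TPM in ST2WT and 50.5 to 73.4 TPM in ST2fl/fl libraries (limma log2 fold change -0.65, adjusted p = 0.0727). Blocking on the recipient (adjusted p = 0.0407), or leaving out the ST2WT library of recipient 2 (adjusted p = 0.0386), put *Cd74* past the limits for a call. The part of these markers in the results below was not tested. The ST2WT library of recipient 2 stood apart. The SD of its deviations from the other libraries of its genotype was 0.465 on the log2 scale over all genes tested, against 0.242 to 0.279 in the others, and 9.18% of its TPM was mitochondrially encoded, against 12.7% to 13.8%. Where it moved a named log2 fold change by over 1.5 times, the value without it is given as well. That fit keeps the ST2fl/fl library of recipient 2, which is then without its pair.

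No translation factor reached the limits set for a call, an adjusted p under 0.05 with a fold over 1.5, and most were slightly higher in ST2WT cells. Against 0 of 58 members, 53 of 10238 genes (0.518%) passed, 25 higher and 28 lower in ST2WT cells. The smallest adjusted p of a member was 0.121, for *Eif2d* (limma, Benjamini-Hochberg over all genes tested). By sign, 40 members were higher and 18 lower in ST2WT cells, against 48.3% of all genes tested on the higher side. The median log2 fold change was 0.12 over the members and -0.01 over all genes tested. In recipients 1, 2, 3 and 4 the members' median log2 difference between the paired libraries was 0.11, 0.19, 0.05 and 0.12, against 0.00, 0.02, -0.03 and -0.02 over all genes tested. It was above that of all genes in each of the 4 recipients. Without the ST2WT library of recipient 2 the members' median was 0.07, with 41 higher and 17 lower. Without both libraries of recipient 2 it was 0.09, with 45 higher. In bulk RNA of sorted cells, a change in the mix of cell states and a change in RNA per cell cannot be told apart.

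At an unadjusted p under 0.05, 9 members were higher in ST2WT cells (limma), against 6.8% of all genes tested, and 2 were lower, against 7.11%. The 9 are 15.5% of the members tested. With the recipient as a block these became 17 members (29.3%) higher, against 10.3% of all genes, and 3 lower, against 9.94%, again with 0 members past the threshold. The smallest adjusted p of a member in that fit was 0.0765 (limma). Adjusted p-values of single genes below are from the fit without the block unless another fit is named. Without the ST2WT library of recipient 2, 0 members passed the threshold, against 1.02% of all genes, and at an unadjusted p under 0.05 9 were higher, against 7.72%, and 2 lower, against 9.08%. In 10 members every ST2WT library was above every ST2fl/fl library, as in 4.58% of all genes tested, and in 1 member, *Eef1a1*, every ST2WT library was below, as in 5.45%. ST2WT cells were higher in all 4 recipients for 25 members, against 14.6% of all genes, and lower in all 4 for 5 members, against 16.7%.

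**Figure D1:**
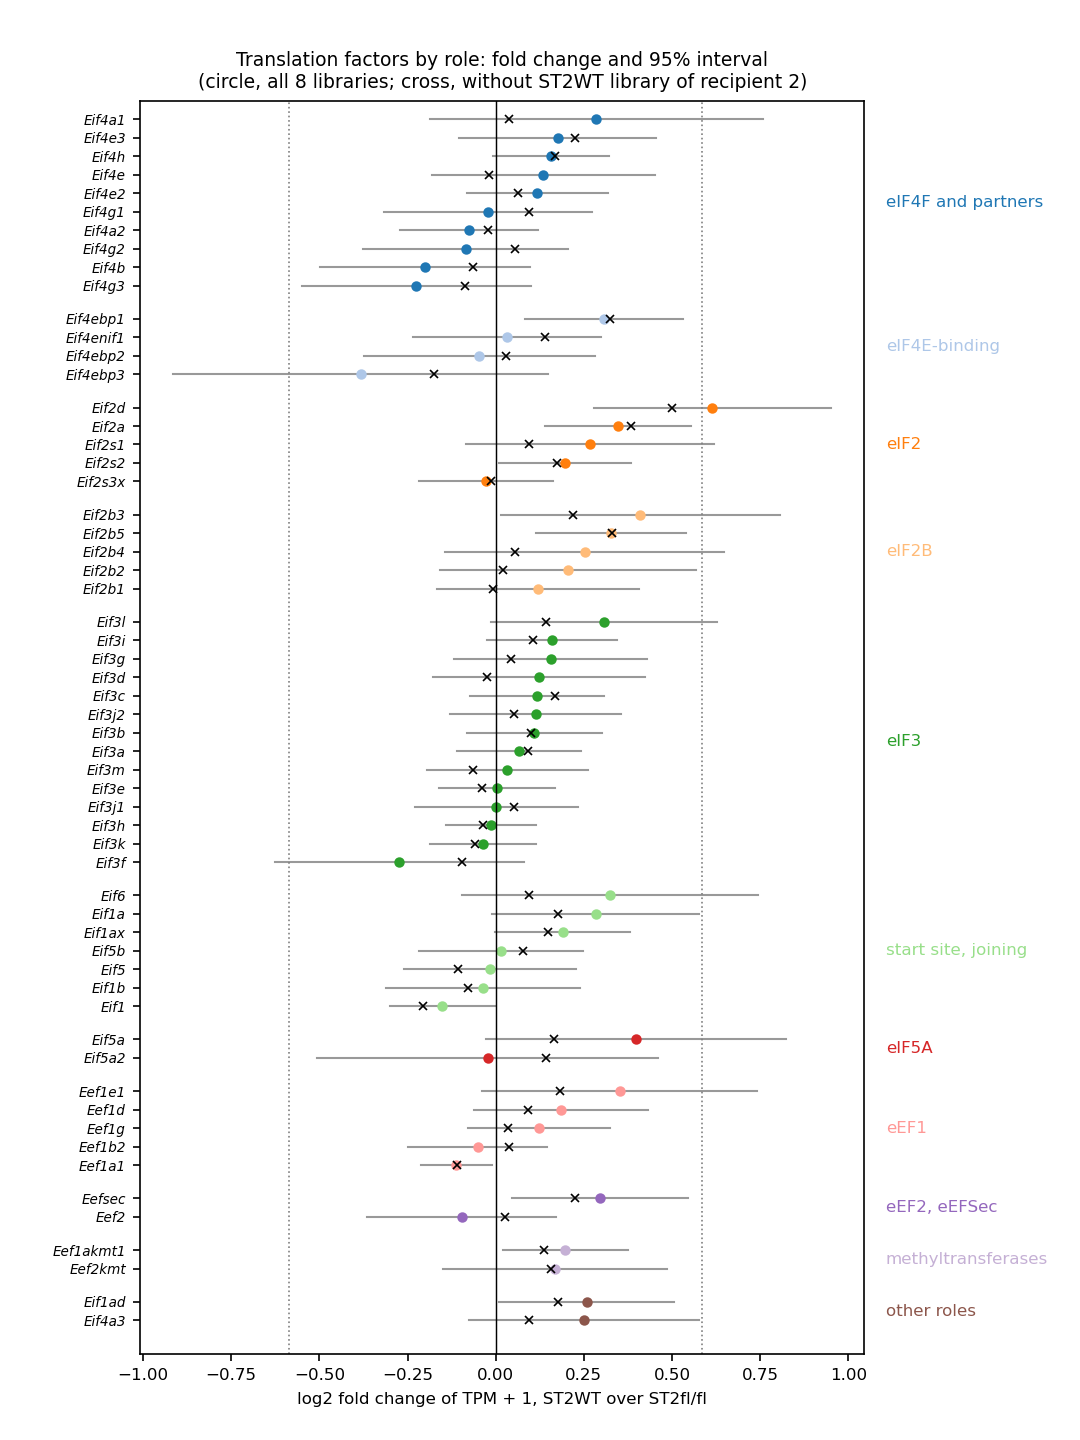
Log2 fold change of TPM + 1, ST2WT over ST2fl/fl, for the 58 translation factors tested, grouped by role on the vertical axis. Circles give the value from all 8 libraries with its 95% interval, crosses the value without the ST2WT library of recipient 2, and dotted lines a fold of 1.5. Only the circle of *Eif2d*, at 0.61, lies beyond a dotted line, and its interval crosses that line.

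The eIF2 group, in which *Eif2d* and *Eif2a* were counted with the subunits of eIF2, had the highest median log2 fold change of the 11 roles. It held *Eif2d*, the member with the highest value. Of 5 genes, 4 were higher in ST2WT cells, 3 of them with no overlap between the genotypes. Of all genes tested, 48.3% were higher, and in 4.58% every ST2WT library was above every ST2fl/fl library. The group's median log2 fold change was 0.27 (0.17 without the ST2WT library of recipient 2). The genes that led it were not the subunits of eIF2 but *Eif2d* and *Eif2a*, which encode separate factors that can bring an initiator tRNA to the ribosome without the GTP cycle of eIF2. The subunits *Eif2s1*, *Eif2s2* and *Eif2s3x* alone were at 0.27, 0.20 and -0.03, the middle value below the eIF2B median of 0.25. Without the ST2WT library of recipient 2 they were at 0.09, 0.17 and -0.01, and the eIF2B median was 0.05. *Eif2d*, on chr1:131153181-131187658 of GRCm38, was at 13.5, 18.8, 12.8 and 13.9 TPM in the ST2WT libraries and at 9.18, 7.74, 11.6 and 8.56 TPM in the ST2fl/fl libraries of recipients 1, 2, 3 and 4. All ST2WT libraries were above all ST2fl/fl libraries, with the highest value in recipient 2. The log2 fold change was 0.61 (SE 0.15, 95% interval 0.28 to 0.95, adjusted p = 0.121 from limma), and 0.50 without the ST2WT library of recipient 2 (adjusted p = 0.0786). The two-sided exact permutation p was 0.0286, the smallest that 4 against 4 libraries allow. Here and below this test leaves out the pairing by recipient. Any gene without overlap gets this p, so it adds nothing to the lack of overlap. Under the alternative settings its adjusted p lay between 0.0484, with array weights, and 0.312, and its log2 fold change between 0.43 and 0.72.

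*Eif2d* lies 6.88 Mb from *Ptprc*, the CD45 gene, whose allele differs between the donors. B6 CD45.1 congenic mice carry a stretch of another strain around *Ptprc*. Of the 62 genes tested within 10 Mb of *Ptprc*, 4 (6.45%) passed the threshold, against 0.518% of all genes tested. Of the same 62, 19.4% had no overlap between the genotypes, against 10% of all genes tested. Within 5 Mb 5.71% of 35 genes passed, and within 20 Mb 4.31% of 116. The median absolute log2 fold change was 0.18, 0.17 and 0.14 within 5, 10 and 20 Mb, against 0.15 over all genes tested. An effect of ST2 on *Eif2d* and an effect of this linked stretch cannot be told apart in these libraries. Exons of *Eif2d* also share 78 bases with *Rassf5* on the opposite strand, and strand use in the counting was not given in the sources used here. *Rassf5* had a log2 fold change of -0.16. The other members on chromosome 1 are *Eef1b2*, *Eif4e2* and *Eif5b*. *Eif5b*, the GTPase that joins the ribosomal subunits, is 2.43 Mb from *Il1rl1* and had a log2 fold change of 0.02 (95% interval -0.22 to 0.25, and 0.08 without the ST2WT library of recipient 2).

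*Eif2a*, on chr3:58525821-58557501, was at 26.6, 23.6, 25.9 and 26.6 TPM in the ST2WT and 20.1, 18.7, 21.2 and 19.9 TPM in the ST2fl/fl libraries of recipients 1, 2, 3 and 4. The libraries within a genotype were close to each other, and the genotypes did not overlap. The log2 fold change was 0.35 (SE 0.09, adjusted p = 0.152 from limma, exact permutation p = 0.0286). Without the ST2WT library of recipient 2, which was the lowest of its genotype, the adjusted p was 0.0318 with a log2 fold change of 0.39, still under a fold of 1.5. In that fit 240 genes (2.34%) had an adjusted p under 0.05 at any fold, and over all alternatives the adjusted p of *Eif2a* ran from 0.0189 to 0.362. Its exons share 72 bases with *Serp1* on the opposite strand, which was at 82.2 TPM in ST2WT and 65.2 TPM in ST2fl/fl cells on average. Reads over the shared bases cannot be assigned to either gene without strand.

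Among the subunits of eIF2 itself the values differed. *Eif2s1*, the alpha subunit that stress kinases phosphorylate, was at 226.4, 376.6, 243.9 and 226.8 TPM in the ST2WT and 198.4, 260.7, 212.2 and 204.3 TPM in the ST2fl/fl libraries. It was the most abundant of the group and higher in ST2WT cells in each recipient, but the ST2fl/fl library of recipient 2 lay above 3 of the ST2WT libraries. Its log2 fold change of 0.27 (adjusted p = 0.463 from limma) became 0.09 without the ST2WT library of recipient 2. With the recipient as a block in limma the adjusted p of *Eif2s1* was 0.140. *Eif2s2*, the beta subunit, was at 84.3 to 91.9 TPM in ST2WT and 68.4 to 82.1 TPM in ST2fl/fl libraries (log2 fold change 0.20, adjusted p = 0.341). *Eif2s3x*, the X-linked gamma subunit, was at 54.3 to 59.7 TPM against 53.7 to 62.4 TPM (log2 fold change -0.03, and -0.01 without that library). The 3 subunits therefore gave 1 range without overlap and 2 with overlap.

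All 5 subunits of eIF2B, the exchange factor that reloads eIF2 with GTP, were higher in ST2WT cells by sign, with a median log2 fold change of 0.25, but much of this came from a single library. The median difference was 0.09, 0.71, -0.03 and 0.12 in recipients 1, 2, 3 and 4, and without the ST2WT library of recipient 2 the median was 0.05. *Eif2b5*, the catalytic epsilon subunit, was the member of the group that did not follow that library. It was at 17.6, 17.7, 17.5 and 18.6 TPM in the ST2WT and 13.8, 15.3, 13.0 and 14.2 TPM in the ST2fl/fl libraries. The 4 ST2WT values were nearly equal and all above the ST2fl/fl values. The log2 fold change was 0.33 (SE 0.10, adjusted p = 0.190 from limma, exact permutation p = 0.0286) and was 0.33 without that library as well. *Eif2b3*, the gamma subunit, was at 7.39, 13.9, 7.82 and 8.02 TPM against 7.06, 6.56, 6.80 and 5.68 TPM. The genotypes did not overlap, yet 1 library carried most of the difference, and the log2 fold change of 0.41 (adjusted p = 0.347) became 0.22 without it. *Eif2b2* and *Eif2b4*, the beta and delta subunits, stood at 67.9 and 43.3 TPM in that library against 36.6 to 42.3 and 23.1 to 26.9 TPM in the other ST2WT libraries. *Eif2b1*, the alpha subunit and the most abundant of the 5, had a log2 fold change of 0.12. It was -0.01 without that library and 0.05 without both libraries of recipient 2.

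**Figure D2:**
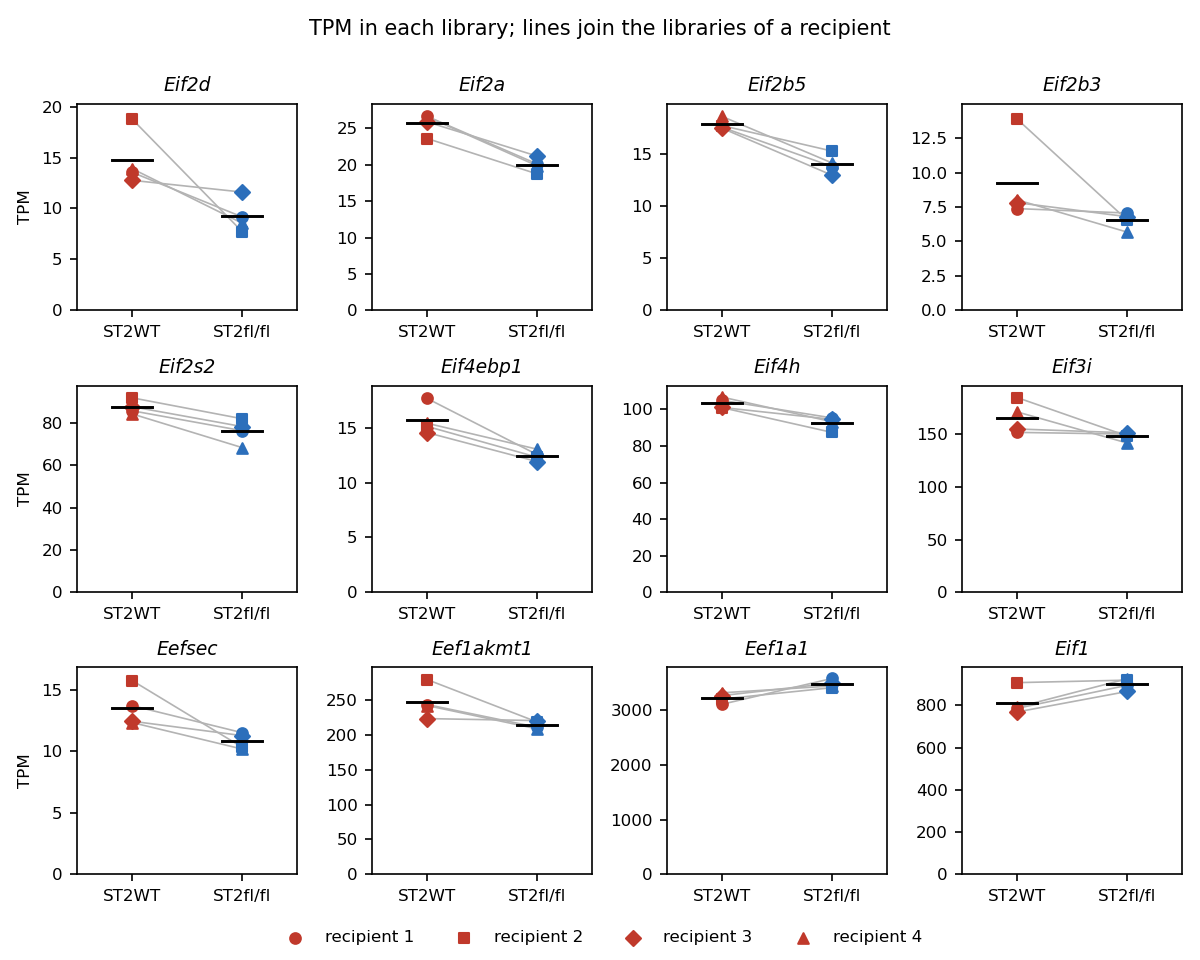
TPM of 12 translation factors in each library, with the genotype on the horizontal axis, 1 marker shape for each recipient, grey lines joining the libraries of a recipient and black bars for the mean of 4 libraries. In the first 10 panels all ST2WT points lie above all ST2fl/fl points, in *Eef1a1* all lie below, and in *Eif1* the ST2WT library of recipient 2, at 907.8 TPM, overlaps the ST2fl/fl points.

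The group of eIF4F, which binds and unwinds the cap end of the mRNA, showed no common direction. The group takes in the paralogs *Eif4e2*, *Eif4e3* and *Eif4g2*, so its counts are not over the parts of eIF4F alone. Of 10 genes, 5 were higher and 5 lower in ST2WT cells, with a median log2 fold change of 0.05. *Eif4e*, the cap-binding protein, was at 88.6, 140.7, 92.2 and 93.9 TPM in the ST2WT and 84.9, 105.0, 91.4 and 90.9 TPM in the ST2fl/fl libraries. It was higher in ST2WT cells within each recipient, by little except in recipient 2. Its log2 fold change was 0.14 (95% interval -0.18 to 0.45, adjusted p = 0.674 from limma) and -0.02 without the ST2WT library of recipient 2. *Eif4a1*, the main helicase, was at 152.0, 272.0, 125.5 and 134.1 TPM against 123.6, 162.0, 131.9 and 119.1 TPM. Recipient 2 gave the highest value of each genotype, and the log2 fold change of 0.28 (adjusted p = 0.541) became 0.04 without its ST2WT library. *Eif4e* and *Eif4a1* are on the Myc target list that the study applied to these same libraries, so they give no independent evidence of its direction.

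*Eif4h*, which stimulates the helicase, was the gene of the group without overlap. It was at 105.0, 100.99, 101.1 and 106.8 TPM in the ST2WT and 95.4, 87.5, 94.6 and 93.3 TPM in the ST2fl/fl libraries. Each ST2WT library was higher, by a small and even amount (limma log2 fold change 0.16, SE 0.07, adjusted p = 0.374, exact permutation p = 0.0286). The scaffold *Eif4g3* had one of the 3 lowest log2 fold changes of the members (-0.23, adjusted p = 0.496). It was at 7.64, 4.60, 7.202 and 6.88 TPM against 8.18, 7.03, 8.005 and 7.81 TPM. It was lower in ST2WT cells in each recipient, most in recipient 2, and the log2 fold change was -0.09 without that ST2WT library.

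The RefSeq promoter windows of these genes (GRCm38.p6, from 250 bases before to 50 bases after a transcription start) were searched for the E-box CACGTG, the sequence that Myc and other E-box factors bind. It reads the same on both strands, and a gene was counted where any of its windows held it. Of the 59 members 45 matched a window by symbol. The E-box stood in 12 of these 45 (26.7%), against 8.09% of all 27025 genes with a window. Among members tested it stood in 11 of 44 (25.0%), against 11.9% of the 7611 genes tested with a window. The number of windows of a gene was not matched in these shares. The E-box windows are shown for both members on the Myc target list of the study, for *Eif5a*, the E-box member with the highest log2 fold change, and for *Eif4h*, the eIF4F gene without overlap, with the E-box in capitals.
*Eif4a1*, chr11:69672374-69672673, minus strand: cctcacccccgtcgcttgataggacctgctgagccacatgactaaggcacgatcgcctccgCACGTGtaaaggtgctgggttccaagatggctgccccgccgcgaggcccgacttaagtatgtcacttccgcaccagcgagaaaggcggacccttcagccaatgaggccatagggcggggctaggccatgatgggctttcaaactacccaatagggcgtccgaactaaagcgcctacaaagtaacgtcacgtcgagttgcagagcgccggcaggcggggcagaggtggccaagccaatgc
*Eif4e*, chr3:138527018-138527317, plus strand: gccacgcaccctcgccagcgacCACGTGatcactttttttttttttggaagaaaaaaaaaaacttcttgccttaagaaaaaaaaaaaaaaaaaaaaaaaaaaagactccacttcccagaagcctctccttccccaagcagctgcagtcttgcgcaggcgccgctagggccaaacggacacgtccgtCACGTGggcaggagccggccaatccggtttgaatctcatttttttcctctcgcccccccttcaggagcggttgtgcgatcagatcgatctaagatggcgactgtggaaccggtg
*Eif5a*, chr11:69921337-69921636, minus strand: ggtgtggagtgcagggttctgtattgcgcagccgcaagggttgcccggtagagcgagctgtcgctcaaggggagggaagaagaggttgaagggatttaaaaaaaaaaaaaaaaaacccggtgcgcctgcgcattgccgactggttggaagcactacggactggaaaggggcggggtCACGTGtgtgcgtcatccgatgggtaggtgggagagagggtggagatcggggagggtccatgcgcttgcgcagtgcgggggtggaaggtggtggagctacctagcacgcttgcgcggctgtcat
*Eif4h*, chr5:134639360-134639659, minus strand: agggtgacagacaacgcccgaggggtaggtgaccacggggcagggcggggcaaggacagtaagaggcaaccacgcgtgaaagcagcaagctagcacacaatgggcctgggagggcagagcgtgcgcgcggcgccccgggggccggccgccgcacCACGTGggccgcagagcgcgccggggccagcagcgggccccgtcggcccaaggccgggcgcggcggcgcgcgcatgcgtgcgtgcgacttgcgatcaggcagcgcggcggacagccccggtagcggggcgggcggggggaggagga
The E-box of *Eif4a1* starts 189 bases before the transcription start, those of *Eif4e* 228 and 64 bases, that of *Eif5a* 74 bases and that of *Eif4h* 96 bases. *Eif4e* has 2 windows in the table and *Eif5a* 6, and the window with the E-box nearest its start is shown. Among members tested, the 11 with an E-box had a median log2 fold change of -0.02, 5 higher and 6 lower in ST2WT cells, and the 33 without had 0.12, 24 higher and 9 lower. Without the ST2WT library of recipient 2 the medians were 0.04 and 0.06. The letters are a description of the windows and are not evidence of binding.

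The eIF4E-binding proteins hold eIF4E away from eIF4G until mTORC1 phosphorylates them. *Eif4ebp1* was at 17.7, 15.1, 14.6 and 15.4 TPM in the ST2WT and 12.6, 12.3, 11.9 and 13.0 TPM in the ST2fl/fl libraries. All ST2WT libraries were higher, and the difference was as large without recipient 2 (log2 fold change 0.31 with all libraries and 0.32 without its ST2WT library, adjusted p = 0.234 from limma). *Eif4ebp3* went the other way by sign, with the lowest log2 fold change of all members (-0.38, 95% interval -0.91 to 0.15, adjusted p = 0.483). It was at 21.9, 8.63, 11.4 and 16.8 TPM against 18.9, 18.5, 14.8 and 21.9 TPM. The ST2WT libraries ranged widely and overlapped the ST2fl/fl libraries, and without the library at 8.63 TPM the log2 fold change was -0.17. Its annotated exons share 501 bases with those of another gene on the same strand, so reads could be split between them. *Eif4enif1*, the eIF4E transporter, had the highest mean level of this group and was at 13.4 to 18.9 TPM in ST2WT and 15.95 to 17.4 TPM in ST2fl/fl libraries (log2 fold change 0.03, and 0.14 without the library at 13.4 TPM).

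The ratio of related factors within a library does not depend on the scaling of that library. In 3 of 14 such pairs the ratio did not overlap between genotypes. *Eif4b* over *Eif4h*, both activators of the helicase, was 0.346 to 0.503 in ST2WT and 0.555 to 0.609 in ST2fl/fl libraries. *Eif4g1* over *Eif4g3*, both eIF4F scaffolds, was 2.25 to 2.68 against 1.96 to 2.22. *Eif4ebp1* over *Eif4ebp3* was 0.807 to 1.75 against 0.596 to 0.805, a gap far smaller than the range within ST2WT cells. Each had an exact permutation p of 0.0286, the smallest that 4 against 4 libraries allow, and 0.133 after Benjamini-Hochberg adjustment over the 14 pairs. With 3 pairs at that floor the adjusted value could not be smaller, so this test cannot tell whether the ratios differ. *Eif4a1* over *Eif4a2*, the other eIF4A helicase, was 3.64 in the ST2WT library of recipient 2 and 1.34 to 1.88 in the other 7 libraries.

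The subunits of eIF3, the scaffold that recruits the small subunit, mostly differed by less than 0.2 between genotypes on the log2 scale. Of 14 genes 11 were higher and 3 lower by sign (median 0.09, and 0.05 with 8 higher without the ST2WT library of recipient 2). Their summed level was 2904 to 3343 TPM in ST2WT and 2862 to 3079 TPM in ST2fl/fl libraries. *Eif3i*, a subunit of the eIF3 core, was at 151.9, 185.0, 155.1 and 171.4 TPM against 150.3, 148.5, 151.5 and 141.8 TPM. The genotypes were separated by less than 1 TPM (151.9 against 151.5 TPM), and the log2 fold change was 0.16 (adjusted p = 0.412 from limma), or 0.11 without the ST2WT library of recipient 2. *Eif3l*, a peripheral subunit, was at 132.7, 200.4, 130.4 and 118.3 TPM against 119.6, 119.8, 112.7 and 107.7 TPM. The library at 200.4 TPM set its log2 fold change of 0.31, which was 0.14 without it. *Eif3f* was the lowest of the group at -0.27 (adjusted p = 0.452). It was at 128.2, 73.5, 109.2 and 127.6 TPM against 140.8, 120.1, 126.2 and 132.2 TPM. It was lower in ST2WT cells in all 4 recipients, mostly in recipient 2, and the log2 fold change was -0.09 without that ST2WT library. *Eif3h*, the most abundant subunit, differed little (650.3 to 703.7 TPM against 654.9 to 694.9 TPM, log2 fold change -0.01, 95% interval -0.14 to 0.11, and -0.04 without the ST2WT library of recipient 2).

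Of the 7 factors of start site selection and subunit joining, 4 were higher and 3 lower in ST2WT cells, with a median log2 fold change of 0.02. *Eif1*, which holds the scanning ribosome open until it meets a start codon, was the most abundant and was on the lower side. It was at 786.0, 907.8, 768.8 and 791.0 TPM in the ST2WT and 895.0, 919.6, 865.8 and 925.9 TPM in the ST2fl/fl libraries. ST2WT was lower within each of the 4 recipients, and the library of recipient 2 was the ST2WT value inside the ST2fl/fl range. The log2 fold change was -0.15 (SE 0.07, adjusted p = 0.351 from limma). Without that library it was -0.20 with an adjusted p of 0.0349, under a fold of 1.5, and the adjusted p ran from 0.0347 to 0.597 over all alternatives. *Eif1ax* and *Eif1a*, both forms of the partner of eIF1 on the small subunit, leaned the other way. *Eif1ax* was at 77.7, 92.8, 87.7 and 82.4 TPM against 72.6, 79.9, 73.2 and 72.1 TPM (log2 fold change 0.19, adjusted p = 0.362), with overlap at 1 library of each genotype. *Eif1a* had a log2 fold change of 0.28 (adjusted p = 0.372), and 0.18 (adjusted p = 0.433) without the library of recipient 2. With the recipient as a block in limma the adjusted p of *Eif1a* was 0.109. *Eif6*, which keeps the large subunit apart, was at 130.6 TPM in the ST2WT library of recipient 2 and at 59.7 to 69.7 TPM in the other 7 libraries.

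*Eif5a* encodes the hypusine-bearing factor that helps ribosomes through difficult stretches such as proline runs. It was at 834.7, 1486, 731.3 and 769.3 TPM in the ST2WT and 630.7, 799.8, 690.2 and 663.3 TPM in the ST2fl/fl libraries. It was higher in ST2WT cells in each recipient, and the library of recipient 2 stood far above the others. Its log2 fold change of 0.40 (95% interval -0.03 to 0.82, adjusted p = 0.380 from limma), the third highest of the members, was 0.16 without that library. With the recipient as a block in limma its adjusted p was 0.142. Its paralog *Eif5a2* had the lowest mean level of the members tested, 3.12 TPM, and a log2 fold change of -0.02 whose sign turned under 8 of the alternative settings (0.14 without that library).

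*Eef1a1*, the factor that delivers aminoacyl-tRNA, was the most abundant member, with a mean of 3360 TPM, and the member lower in all ST2WT libraries. It was at 3114, 3210, 3273 and 3324 TPM in the ST2WT and 3588, 3418, 3501 and 3450 TPM in the ST2fl/fl libraries of recipients 1, 2, 3 and 4. The genotypes did not overlap, and the library of recipient 2 did not stand apart here. The log2 fold change was small, -0.11 with and without that library (SE 0.05, adjusted p = 0.313 from limma, exact permutation p = 0.0286). The other genes of the group, the exchange subunits *Eef1b2*, *Eef1d* and *Eef1g* and the synthetase scaffold *Eef1e1*, overlapped. *Eef1e1* was at 129.2, 183.1, 103.6 and 112.3 TPM against 97.9, 129.4, 91.2 and 89.2 TPM. Each ST2WT library was above its ST2fl/fl partner, with recipient 2 high in both. The log2 fold change was 0.35 (adjusted p = 0.399), and 0.18 (adjusted p = 0.520) without the ST2WT library of recipient 2. Without both libraries of recipient 2 it was 0.30 (adjusted p = 0.0941 from limma). With the recipient as a block *Eef1e1* had the smallest adjusted p of the members, 0.0765. *Eef2*, the translocase, was at 432.5, 298.8, 394.4 and 440.0 TPM against 453.2, 371.7, 403.5 and 431.3 TPM, with overlap. Recipient 2 was the lowest of both genotypes. The log2 fold change of -0.10 became 0.03 without its ST2WT library and -0.02 without both its libraries.

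Transcripts that begin with a run of pyrimidines are a class whose translation mTORC1 controls. Counted was a run of at least 8 C or T on the gene strand that touched the bases from 5 before to 10 after a RefSeq start. It was found in 8 of 44 members tested with a window (18.2%), against 13.7% of genes tested with a window. The 40 bases around the start are shown for 5 of them, 20 on each side, with each such run in capitals. The window with the longest run of the gene was taken.
*Eef1a1*, chr9:78481705-78481744, minus strand: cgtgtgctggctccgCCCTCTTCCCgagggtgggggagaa
*Eif3f*, chr7:108934395-108934434, plus strand: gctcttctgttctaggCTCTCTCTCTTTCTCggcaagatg
*Eif2b5*, chr16:20498797-20498836, plus strand: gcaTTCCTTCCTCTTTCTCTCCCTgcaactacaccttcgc
*Eif2s3x*, chrX:94212632-94212671, minus strand: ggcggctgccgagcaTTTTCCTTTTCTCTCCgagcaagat
*Eif3l*, chr15:79075203-79075242, plus strand: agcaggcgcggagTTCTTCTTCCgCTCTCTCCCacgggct
The members tested with such a run had a median log2 fold change of 0.08, 5 higher and 3 lower, and the 36 without had 0.12. These medians were 0.00362 and 0.07 without the ST2WT library of recipient 2. Of the 5 shown, *Eif2b5* and *Eif3l* were higher in ST2WT cells and *Eef1a1*, *Eif3f* and *Eif2s3x* lower by sign. The members with a run that are not shown, *Eif2b2*, *Eif4e* and *Eif4enif1*, were all higher by sign, at 0.21, 0.14 and 0.03. Without the ST2WT library of recipient 2 they were at 0.02, -0.02 and 0.14. RefSeq starts need not be the starts used in these cells. In each of the 5 shown the first marked run begins before the RefSeq start, in *Eif2b5* the furthest. A marked run, that of *Eef1a1* included, therefore need not be the first bases of a transcript. The mRNA levels do not measure translation.

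*Eefsec*, which delivers selenocysteine-tRNA, was at 13.7, 15.8, 12.5 and 12.4 TPM in the ST2WT and 11.5, 10.3, 11.3 and 10.2 TPM in the ST2fl/fl libraries. The genotypes did not overlap (log2 fold change 0.30, and 0.23 without the ST2WT library of recipient 2, with an adjusted p of 0.287 from limma). *Eef1akmt1*, which methylates a lysine of eEF1A in human cells, was at 243.9, 280.0, 223.8 and 242.6 TPM against 211.3, 219.0, 220.9 and 209.0 TPM. All ST2WT libraries were higher, that of recipient 3 by the least (log2 fold change 0.20, adjusted p = 0.316). *Eef2kmt*, which methylates eEF2, had a log2 fold change of 0.17 (adjusted p = 0.597). The exon junction helicase *Eif4a3* and *Eif1ad*, outside initiation by role, were both higher by sign, at 0.25 (adjusted p = 0.455) and 0.26 (adjusted p = 0.344). *Eif4a3* was at 0.09 without the ST2WT library of recipient 2.

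The members' share of all TPM was 1.32% in the ST2WT library of recipient 2, 1.12% to 1.15% in the other ST2WT libraries and 1.13% to 1.19% in the ST2fl/fl libraries. That library was not raised evenly. Its median deviation from the other ST2WT libraries, on the log2 scale, was 0.74 for eIF2B and 0.35 for eEF1 but -0.20 for eIF4F and -0.37 for the eIF4E-binding group. The deviation moved with exon length (Spearman's rho -0.31 over 58 members, and -0.31 over 9942 genes with a length, as a description across genes that share the library). Other libraries had such relations too. The members' rho was 0.21, 0.47 and 0.13 in the ST2WT libraries of recipients 1, 3 and 4. It ran from -0.27 to 0.23 in the ST2fl/fl libraries. The ST2WT library of recipient 2 is part of the reference from which the other ST2WT libraries deviate. Their opposite sign is therefore not independent of its own. In the 20 shortest members, of 744 to 2013 exonic bases, the median deviation was 0.23, against -0.18 to 0.06 in the other 7 libraries. In the 19 longest, of 3524 to 10117 bases, it was -0.10, close to the -0.09 to 0.10 of the other 7. The shortest members' median log2 fold change was 0.12 with that library and 0.01 without it, and the longest members' 0.02 and 0.08. The middle 19 kept 0.20 and 0.16. The part of RNA quality in these values was not tested.

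**Figure D3:**
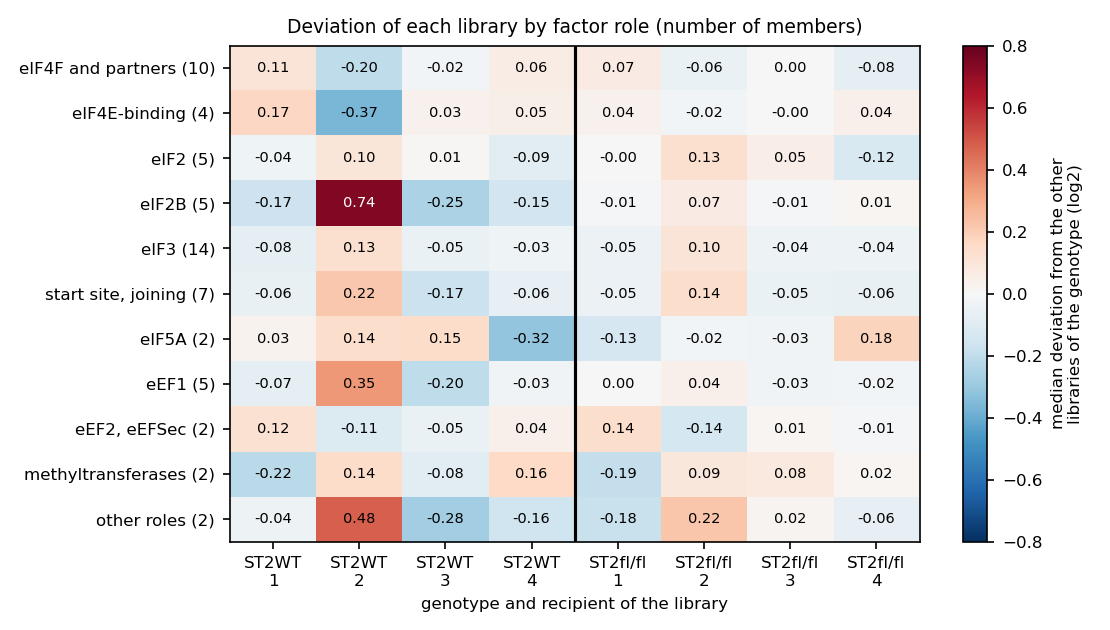
Median deviation, on the log2 scale, of each library from the other libraries of its genotype, for each factor role on the vertical axis (number of members in brackets) and each library on the horizontal axis. The ST2WT library of recipient 2 holds the extreme values, 0.74 for eIF2B and -0.37 for the eIF4E-binding group.

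**Figure D4:**
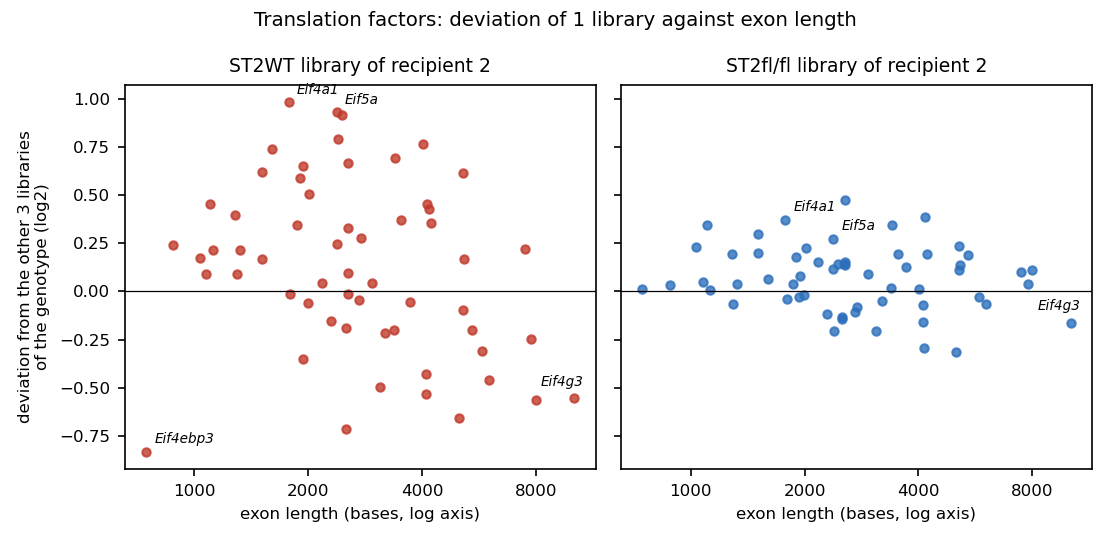
Deviation of the libraries of recipient 2 from the other libraries of the genotype (vertical axis, log2) against exon length (horizontal axis, log scale), 1 point for each of 58 members, ST2WT at left and ST2fl/fl at right. In the ST2WT library *Eif4a1* lies at 0.99 and *Eif5a* at 0.93, the longest member, *Eif4g3*, at -0.56, and the shortest, *Eif4ebp3*, at -0.83, the lowest of all.

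Translation genes outside the symbol rule were read from 6 lists drawn up for this comparison. Of their 72 tested genes 0 passed the threshold, against 0.518% of all genes tested. At that share, 0 of 72 is not a result about these lists. Regulators of initiation from mTORC1 and the MNK kinases numbered 13 tested, 6 higher and 7 lower, with a median log2 fold change of -0.01. *Pdcd4*, an inhibitor of the eIF4A helicase, was at 76.6, 64.4, 76.1 and 79.96 TPM in the ST2WT and 107.7, 83.1, 101.5 and 105.4 TPM in the ST2fl/fl libraries. All ST2WT libraries were lower (limma log2 fold change -0.41, SE 0.11, adjusted p = 0.137, exact permutation p = 0.0286). With the recipient as a block its adjusted p was 0.0441, under a fold of 1.5. *Akt1s1*, the mTORC1 inhibitor PRAS40, was at 1.10 to 1.31 TPM against 1.55 to 2.10 TPM (log2 fold change -0.31, adjusted p = 0.304).

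Of 12 genes of the eIF2 kinases and the integrated stress response, 3 were higher and 9 lower in ST2WT cells (median log2 fold change -0.10, and -0.05 without the ST2WT library of recipient 2). *Ddit3*, the stress-induced factor CHOP, was at 18.01, 18.3, 19.7 and 22.7 TPM in the ST2WT and 31.0, 25.6, 27.1 and 30.6 TPM in the ST2fl/fl libraries. The genotypes did not overlap (limma log2 fold change -0.52, SE 0.11, adjusted p = 0.0781, exact permutation p = 0.0286). Without the ST2WT library of recipient 2 its adjusted p was 0.0444 with a log2 fold change of -0.49, under a fold of 1.5. *Eif2ak4*, the amino acid sensing kinase GCN2, was at 0.968 to 1.72 TPM against 0.826 to 0.966 TPM, so that the genotypes met near the filter (log2 fold change 0.27, adjusted p = 0.402).

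Of the 16 poly(A)-binding and scanning genes 9 were higher and 7 lower (median 0.01). In this list *Paip2*, which inhibits the poly(A)-binding protein, was at 187 to 195 TPM in ST2WT and 203 to 238 TPM in ST2fl/fl libraries (log2 fold change -0.17, adjusted p = 0.339), and *Bzw1*, a mimic of eIF5, had a log2 fold change of 0.21, which was 0.05 without the ST2WT library of recipient 2. Of the 11 termination and recycling genes 5 were higher, with *Etf1*, the release factor, at 0.16 and *Hbs1l* at 0.21 (0.04 without that library). The enzymes that make hypusine on eIF5A and diphthamide on eEF2 were higher in 7 of 9 cases (median log2 fold change 0.18, but 0.03 without the ST2WT library of recipient 2), led by *Dohh* at 0.34 and *Dph7* at 0.24. Without that library *Dohh* was at 0.12 and *Dph7* at 0.05. Of the 11 mitochondrial translation factors 7 were higher (median 0.08). *Tsfm*, the mitochondrial exchange factor, was at 0.48 (adjusted p = 0.284) and at 0.29 without that library, and *Mtrf1*, a mitochondrial release factor, at 0.35 (adjusted p = 0.364).

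**Figure D5:**
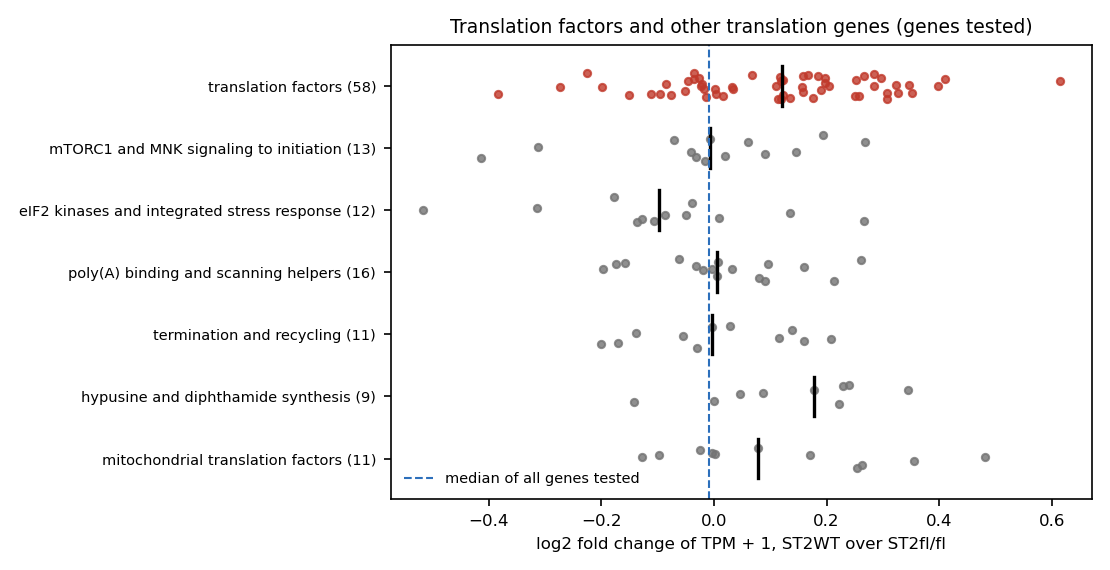
Log2 fold change of TPM + 1, ST2WT over ST2fl/fl, on the horizontal axis for the 58 translation factors (red) and 6 lists of other translation genes (grey), 1 point for each gene, with black bars at the medians and a dashed line at the median of all genes tested. The translation factors' median, 0.12, and that of the hypusine and diphthamide enzymes, 0.18, lie right of the dashed line, and that of the integrated stress response, -0.10, lies left of it.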

How the data were processed

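Deposited per library by the authors were TPM. Sorted cells were lysed in SmartSeq buffer, libraries made with Nextera XT and sequenced on a NextSeq500, and reads aligned to GRCm38.p6 in CLC Genomics Workbench 20.0.3. The authors compared TMM-normalized reads in edgeR. TPM hold no read totals, so no count test or counting interval was possible.

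The 10238 genes whose mean reached 1 TPM, of 12417, entered limma 3.58.1 (R 4.3.3) as log2(TPM + 1), with trended variances, no covariate and Benjamini-Hochberg adjustment over all of them. The pseudocount understates changes of low genes. Permutation tests were exact and two-sided, over 70 labelings, without the pairing by recipient. A call needed an adjusted p under 0.05 with a fold over 1.5. On simulated data for this comparison (10238 genes), 76 of 100 genes changed by 0.8 on the log2 scale and 97 of 100 changed by 1.5 were recovered, with 4 unchanged genes called. The simulated noise was independent between libraries, with no recipient effect and no library that stood apart, and the lowest genes were not changed. Both sizes are above the highest member value, 0.61. The simulation therefore does not show how often changes of the members' size would be called. The p-values measure the spread between libraries, each from 1 recipient.

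The members and lists were chosen with earlier results of these data known. Named by rule were, in each role, the 2 members with the smallest p and the most abundant one, the members on the Myc list of the study, the 3 highest and 3 lowest log2 fold changes, related pairs, and the 2 genes of smallest p in each other list. *Eif2s2*, *Eif2b2*, *Eif2b4*, *Eif5b*, *Eif6*, *Eef1g*, *Eef2k*, *Rassf5*, *Serp1* and *Cd74* were added by name with their values in view. The CD4 T cell markers were named in the same way. *Eef1a2* and *Eif2s3y* were not analysed here. Both genotypes were sorted from the same recipients, and a shared replicate number was read as a shared recipient, since the labels name none. Same-numbered libraries deviated together from their genotype means (correlations 0.195, 0.352, 0.118 and 0.163 for recipients 1, 2, 3 and 4, against -0.283 to 0.109 between different numbers). Coordinates and exon lengths are from GENCODE M21 (GRCm38), to which 96.8% of symbols matched uniquely, and promoter windows are from RefSeq. Figures were drawn with matplotlib 3.10.9.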

Additional observations from a re-analysis of the deposited data

Results flagged for a closer look

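In groups of 4 libraries, a value was picked out when its gap to the nearest other library took up more of its group's range than Dixon's critical value at the 95% level allows, which chance does in about 1 in 20 groups. Of 64 groups examined over 29 named members and 3 library measures, 11 were picked out, 8 of them in the ST2WT library of recipient 2. In that library *Eif1* stood at 907.8 TPM, *Eif2b3* at 13.9 TPM, *Eif2s1* at 376.6 TPM, *Eif4e* at 140.7 TPM and *Eif5a* at 1486 TPM, each the highest of its genotype. *Eif4enif1* stood at 13.4 TPM, the lowest. The members' share of TPM in that library was 1.32%, and the SD of its deviations over all genes tested was 0.465 on the log2 scale. The other 3 were in ST2fl/fl libraries. *Eef2kmt* was low at 8.23 TPM in recipient 1, *Eif1ax* was high at 79.9 TPM in recipient 2, and the SD of deviations of the ST2fl/fl library of recipient 2 was 0.279.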

How the results depend on the processing

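The members past the threshold stayed at 0 under all 20 alternatives, and the median log2 fold change of the members stayed above 0, at 0.07 to 0.17 when 1 library was left out. Of the 579 alternative values of 29 named members, 564 kept their direction and their side of the threshold, and 15, in 6 members, turned sign. With array weights *Eif1*, *Eif2a*, *Eif2b5* and *Eif2d* had an adjusted p under 0.05 with a fold under 1.5, as did 357 genes in all at any fold.

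Over all genes tested, the 25 higher calls became 13 with a pseudocount of 5 TPM, 15 when a mean of 5 TPM was required, 56 with array weights, 38 with the replicate block, 41 without recipient 2, and 10 to 46 with 1 library left out. The 28 lower calls became 74 with array weights, 57 with the replicate block, 64 without recipient 2, 57 with length adjustment and the block, and 13 to 58 with 1 library left out. The 9 members higher at an unadjusted p under 0.05 became 16 with array weights, 17 with the block, 17 without recipient 2, 19 with length adjustment and the block, and 4 to 11 with 1 library left out. The 2 lower became 0 with centring on the median, 0 with a common prior variance, and 0 to 2 with 1 library left out. The members higher by sign were 38 to 43 with 1 library left out. The highest counts of calls over all genes with 1 library left out came without the ST2WT library of recipient 2, and the lowest without the ST2fl/fl library of recipient 1. The block changed no call of a member.

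Signs turned for *Eef2* with array weights (0.00203), *Eif3h* with centring (0.0193) and *Eif5a2* with centring (0.0110), array weights (0.0746), without recipient 2 (0.0638) and with length adjustment, alone or with the block (0.0484). With 1 library left out the log2 fold change ran from -0.158 to 0.0277 for *Eef2*, -0.00769 to 0.183 for *Eif2b1*, -0.0361 to 0.00177 for *Eif3h*, -0.0188 to 0.202 for *Eif4e*, -0.0165 to 0.139 for *Eif4enif1* and -0.204 to 0.142 for *Eif5a2*. The causes were not tested. Length adjustment was added after seeing the data. Depth is unknown, so counting error in the low members could not be given.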
